A study of Mus musculus with 6 samples.

Results

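Open chromatin was examined at 32 interferon-stimulated genes in mouse CD8+ T cells. The genes came from a list of antiviral effectors, nucleic acid sensors, guanylate-binding proteins, ADP-ribosyltransferases, receptor chains and antigen-processing genes. A peak belonged to the list when its summit had one of these genes as the nearest protein-coding gene, inside its body or within 100 kb of it. Of the 32 genes, 30 are protein-coding in the reference table and 28 had at least 1 peak in at least 1 library. Mx1 and Mx2 are transcribed pseudogenes in that table, so the rule assigned nothing to them. The peaks of the list numbered 172, 176 and 169 of the 104575, 105796 and 100243 peaks with Res-shFabp7, and 143, 142 and 166 of the 84844, 82153 and 96310 peaks with Res-ctrl. Merged over the 6 libraries where they overlapped, these peaks formed 220 of 134174 regions.

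The assay was ATAC-seq: a transposase cuts accessible DNA and leaves sequencing adapters behind. CD8+ T cells were purified from mouse spleen by depletion of other cells and activated with antibodies to CD3 (5 µg/mL) and CD28 (1 µg/mL). They were kept for 48 h below a porous transwell membrane, with PD-1-resistant lung adenocarcinoma cells (Res) in the insert above. The Res cells carried a short hairpin RNA against Fabp7, a fatty acid binding protein (Res-shFabp7, 3 biological replicates), or were the control (Res-ctrl, 3 biological replicates). All T cells of both groups were activated and all shared a well with tumour cells, so neither group shows T cells alone. The knockdown was in the tumour cells, and no library of the T cells can check it. The labels used here name neither the mouse strain, sex and age nor the number of animals or hairpins.

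Type I interferons signal through a receptor of the chains IFNAR1 and IFNAR2. The kinases JAK1 and TYK2 then activate a complex that contains STAT2 and IRF9 and binds the interferon-stimulated response element in the promoters of target genes. Interferon gamma, which activated CD8+ T cells secrete themselves, signals through another receptor with JAK1 and JAK2, and its target genes carry the gamma-activated sequence. The products of the target genes block viral translation, replication and budding, sense foreign nucleic acid, cut peptides for MHC class I presentation and damp the signal itself. Guanylate-binding proteins, the immunoproteasome and TAP respond strongly to interferon gamma. Many laboratory mouse strains lack functional Mx genes.

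The start windows of the genes show the response element itself, and 3 of them are given to let a reader see it. RefSeq promoter windows (GRCm38.p6) were found for 26 of the 32 genes, in 30 windows that run from 250 bases before to 50 bases after a start. The sequences below are the bases before the start, 5′ to 3′ on the strand of the gene, and the capitals mark every match of GAAANNGAAA on either strand, so that a match on the other strand reads as its reverse complement.
Isg15 (chr4:156200819-156201068, minus strand): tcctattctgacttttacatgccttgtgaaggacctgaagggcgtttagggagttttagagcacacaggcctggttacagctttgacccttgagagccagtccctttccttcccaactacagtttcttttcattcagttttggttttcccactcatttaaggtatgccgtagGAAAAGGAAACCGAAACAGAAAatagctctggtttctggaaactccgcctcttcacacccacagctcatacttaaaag
Ifit1 (chr19:34640639-34640888, plus strand): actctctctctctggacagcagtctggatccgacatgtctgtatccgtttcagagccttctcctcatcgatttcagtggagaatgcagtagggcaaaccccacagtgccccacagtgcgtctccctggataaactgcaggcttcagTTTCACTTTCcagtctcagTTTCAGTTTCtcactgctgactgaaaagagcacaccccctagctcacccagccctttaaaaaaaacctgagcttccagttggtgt
Gbp2 (chr3:142620413-142620662, plus strand): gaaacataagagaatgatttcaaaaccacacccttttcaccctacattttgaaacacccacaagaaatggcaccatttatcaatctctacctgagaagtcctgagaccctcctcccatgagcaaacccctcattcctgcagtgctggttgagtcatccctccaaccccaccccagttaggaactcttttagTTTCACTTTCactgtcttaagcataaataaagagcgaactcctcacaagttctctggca

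A match of GAAANNGAAA lay in 11 of the 30 windows (36.7%), against 713 of 21262 windows of all protein-coding genes (3.35%). Isg15 had 3 overlapping matches, which began 78, 72 and 66 bases before its start. Ifit1, Ifit3, Bst2, Gbp3 and Oas1a had 2 each, and Gbp2, Gbp5 and Rsad2 had 1 each. Ifih1 and Eif2ak2 had theirs after the start. For 5 further genes, 1 match each is shown on the strand that reads GAAA, with 10 flanking bases on each side, to let the spacer and flanks be compared. Further matches in the flanks are left in lower case.
Ifit3 (chr19:34583397-34583426, minus strand): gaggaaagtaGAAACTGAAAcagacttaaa
Rsad2 (chr12:26456553-26456582, plus strand): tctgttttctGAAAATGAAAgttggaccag
Bst2 (chr8:71537577-71537606, minus strand): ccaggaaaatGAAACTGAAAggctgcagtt
Gbp5 (chr3:142496759-142496788, minus strand): tctctaaactGAAATTGAAActacacaagt
Oas1a (chr5:120907520-120907549, minus strand): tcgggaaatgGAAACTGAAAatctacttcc

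The gamma-activated sequence, searched as TTCNNNGAA, which reads the same on both strands, also lay in 11 of the 30 windows (36.7%), against 7.69% of all windows. Bst2, Gbp5, Oas1a and Eif2ak2 had both motifs. Ifnar1, which encodes a chain of the type I receptor, and Psmb8, a catalytic subunit of the immunoproteasome, had this motif and no match of the response element. Their matches, in capitals, began 5 and 97 bases before the start, and that of Ifnar1 ran across the start.
Ifnar1 (chr16:91485200-91485228, plus strand): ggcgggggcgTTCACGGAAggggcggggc
Psmb8 (chr17:34198088-34198116, plus strand): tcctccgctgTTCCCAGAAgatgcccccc
A match is a stretch of letters and no evidence that a factor was bound in these cells.

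The starts of most of these genes were open in every library. A peak overlapped 25 of the 30 windows in all 6 libraries (83.3%), against 48.0% of all 21262 windows, and 10 of those 25 held the response element, against 3.01% of all windows with a peak in all 6 libraries. The height of a peak is given here as the authors' pileup, the coverage at its summit, which grows with the depth of a library. By the median of raw pileup over the 6 libraries, the highest start was the one shared by Psmb9, another immunoproteasome subunit, and Tap1, the peptide transporter, which face away from each other. Its pileup was 251, 261 and 280 with Res-shFabp7 and 193, 183 and 255 with Res-ctrl. Raw pileups of Res-ctrl 3 reached above the lowest Res-shFabp7 library there, while those of Res-ctrl 1 and 2 stayed below all 3.

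In each single library another start was higher. Next by the median was Gbp2, a guanylate-binding protein of cell-autonomous defence, with 267, 287 and 310 against 167, 164 and 220. All 3 Res-shFabp7 libraries stood above all 3 Res-ctrl libraries. Ifnar1 had 286, 235 and 237 against 231, 177 and 279. The third start of Adar, the gene of an enzyme that edits adenosine in double-stranded RNA, had 256, 239 and 229 against 211, 187 and 309. At both, Res-ctrl 3 lay at or above most Res-shFabp7 libraries and the groups overlapped. Ifit2, which binds RNA and restrains viral translation, had 192, 220 and 192 against 187, 162 and 225, and the groups overlapped there too. The remaining starts with a peak in all 6 libraries had a median pileup from 29 at Ifit3, a partner of IFIT1, to 188 at Ifit1. Among them, Bst2, which encodes tetherin and holds budding virions at the cell surface, had 216, 186 and 163 against 158, 145 and 208, and Trim25, a ubiquitin ligase of RNA sensing, had 182, 194 and 163 against 153, 140 and 207. At both, Res-ctrl 3 lay within the Res-shFabp7 range or above it.

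A few starts had a peak in fewer than 6 libraries. No library had a peak in the window of Oas1a, a synthase of the second messenger that activates RNase L, although this window holds the response element, or in that of Oasl1, a catalytically inactive relative. At Oasl1 the nearest region called in all 6 libraries lay 1214 bases upstream of the start. The Oasl2 window had peaks with Res-shFabp7 of pileup 9, 14 and 11 and none with Res-ctrl, but they fell in separate regions of 2 libraries and 1. Ifi44, an interferon-induced gene, had a single peak in its window, of pileup 6 in Res-shFabp7 2. The second start of Gbp3 had peaks of 42, 37 and 38 with Res-shFabp7 and of 27 and 33 in Res-ctrl 1 and 3, with none in Res-ctrl 2. The lowest pileup in any list was 5 to 6, and the Oasl2 and Ifi44 peaks lay nearer to it than those of Gbp3. A call also depends on the local background, so pileup alone does not show how near a peak was to the limit of calling. The absence of a peak does not show closed chromatin. The Ifit, Oas and Gbp genes have close copies, and how reads that fit several copies were treated was not stated in the labels, so values at them are uncertain.

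The nearest-gene rule left some starts to a neighbour. The peak over the start of Ifit1, which had a pileup of 192, 184 and 201 with Res-shFabp7 and 140, 130 and 197 with Res-ctrl, has its summit in the overlapping gene Ifit1bl1. That is why Ifit1 counts 0 regions. The start peak of Eif2ak2, the kinase PKR that stops translation on double-stranded RNA, had 48, 30 and 32 against 26, 16 and 46 and has its summit in the overlapping gene Gm26637. Eif2ak2 kept 2 regions of 1 library each. Oas1a had no region at all. Within the body of Mx2, a region called in all 6 libraries had a pileup of 40, 37 and 39 against 22, 17 and 35 (limma adjusted p = 0.398), and the rule gives it to Tmprss2.

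**Figure D1:**
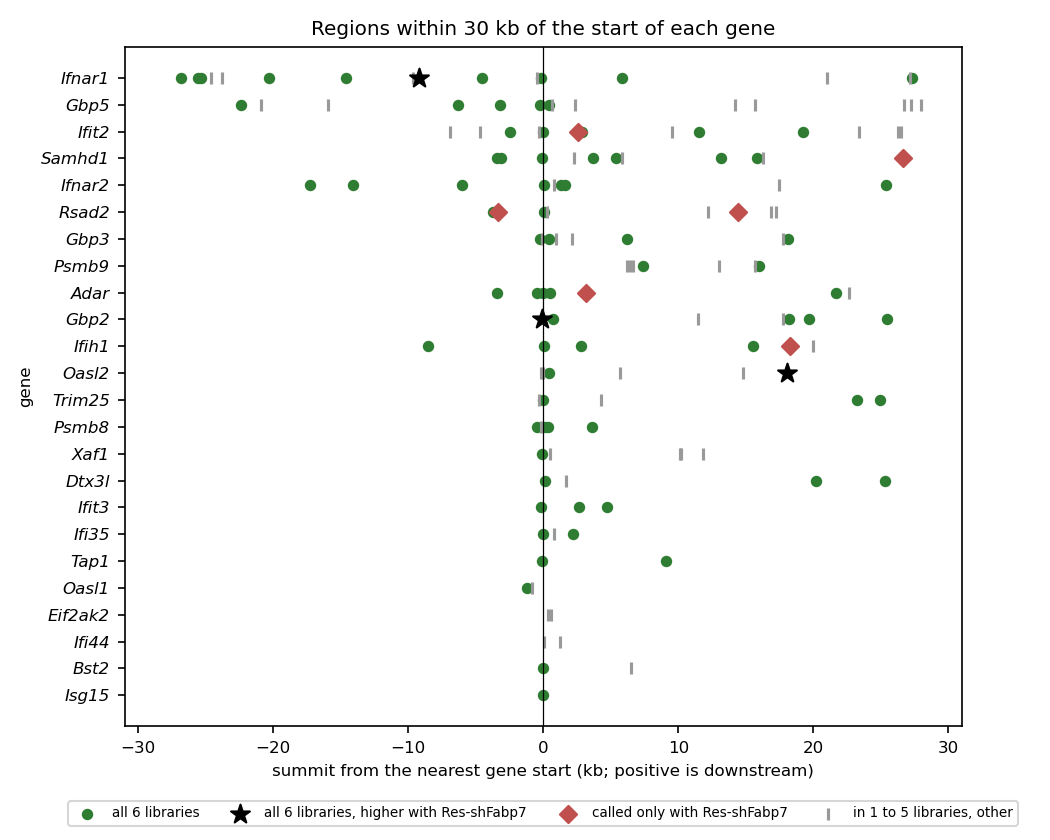
Each row is a gene with a known strand and start, and each mark is a merged region within 30 kb, placed by the distance of its summit from the nearest start (kb, positive downstream). Green dots are regions called in all 6 libraries, and most genes have one at the start. The star of Gbp2 stands at the start, while those of Ifnar1 and Oasl2 and all 6 diamonds stand away from it; Zbp1, Parp14, Parp9 and Usp18 have no start in the table and are not drawn.

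The number of regions per gene was uneven. Ifnar1 had the most, 21, of which 12 were called in all 6 libraries. Ifnar2, the other receptor chain, had 8 of 10 in all 6, Samhd1, a hydrolase that depletes nucleotides, 7 of 12, Usp18, which removes ISG15 and blocks the receptor, 6 of 14, and Dtx3l, a ubiquitin ligase that pairs with PARP9, 6 of 9. Isg15, a ubiquitin-like modifier, had 1 region, at its start, with a pileup of 96, 102 and 103 with Res-shFabp7 and 65, 73 and 90 with Res-ctrl. The raw values did not overlap, but the difference in rank did not pass the test described below (limma adjusted p = 0.578). Of the 220 regions, 101 were called in all 6 libraries (45.9%), against 42.2% of all regions, and 58 in a single library. The regions lay closer to gene ends than regions at large, with 74 within 1 kb of an end (33.6% against 16.7%), and 48.6% lay inside a gene body (59.4% over all). Neighbouring members share territory: Gbp2, Gbp3 and Gbp5, Parp9, Parp14 and Dtx3l, Psmb8, Psmb9 and Tap1, and the pairs Ifnar1 and Ifnar2, Oasl1 and Oasl2, and Ifit2 and Ifit3 are close on a chromosome and are not independent.

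**Figure D2:**
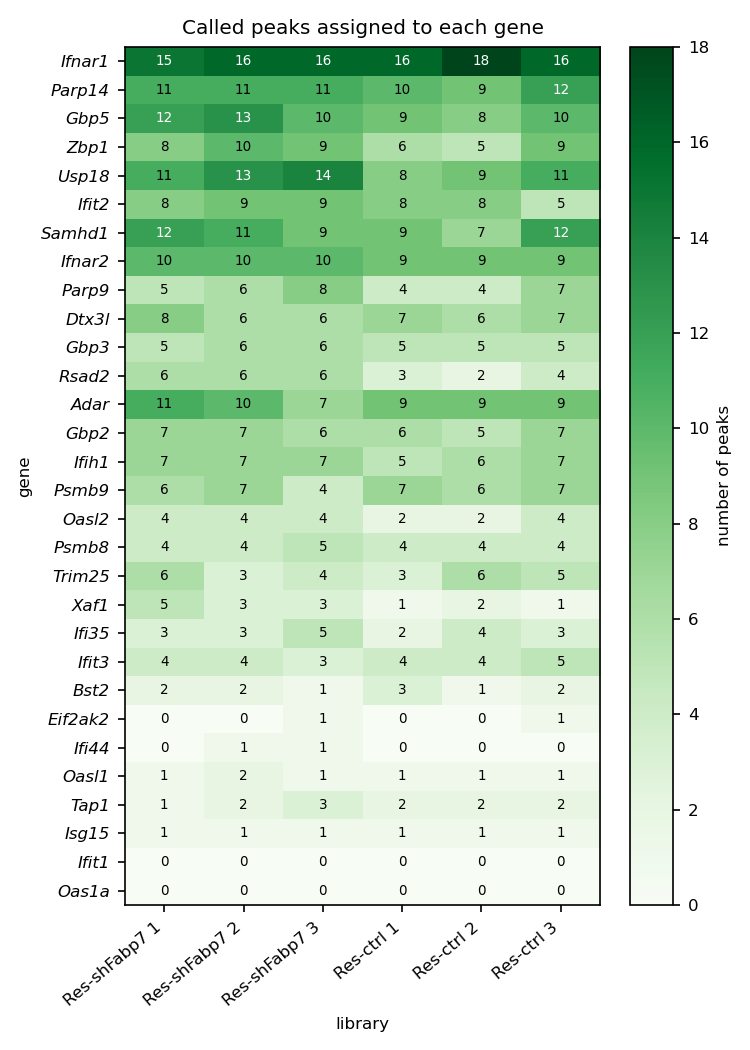
Number of called peaks assigned to each of the 30 protein-coding genes (rows, most regions on top) in each of the 6 libraries (columns). Ifnar1 carried 15 to 18 peaks in each library, and Rsad2 had 6 in each Res-shFabp7 library and 3, 2 and 4 in the Res-ctrl libraries.

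The share of peaks at these genes differed little in size between the groups. Per 1000 peaks of a list, 1.64, 1.66 and 1.69 belonged to them with Res-shFabp7 and 1.69, 1.73 and 1.72 with Res-ctrl. The means were 1.66 ± 0.0206 and 1.71 ± 0.0236 (SD, n = 3 each), a difference of -0.0478 (two-sided exact permutation p = 0.2, where 3 against 3 cannot go below 0.1). With peaks of q under 0.01 or 0.001 the difference was -0.0502 or -0.0573, with no overlap of the groups and Res-ctrl the higher (exact permutation p = 0.1 each). With each list held to its 82153 strongest peaks, the length of the shortest list, the genes had 142, 144 and 144 peaks against 141, 142 and 147, and the difference was 0. The relative depth of a list, read as its most frequent background pileup, was 1.03, 0.868 and 0.959 with Res-shFabp7 and 0.709, 0.608 and 1.01 with Res-ctrl. Depth therefore moved with the group, apart from Res-ctrl 3. These are bulk cells, in which more cells with an open region and a more open region per cell cannot be told apart.

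Regions that carried a peak in 3 of 3 Res-shFabp7 libraries and in 0 of 3 Res-ctrl libraries numbered 8 of 220 (3.64%), where the share over all merged regions was 2.28%. No region of these genes was called only with Res-ctrl, where the share over all was 0.155%. The 8 regions belonged to Rsad2 (2), Zbp1 (2), Ifit2, Ifih1, Samhd1 and Adar. By class they were 5 of 66 regions at antiviral effectors (7.58%) and 3 of 27 at sensors and ubiquitin ligases (11.1%). The guanylate-binding proteins had 0 of 30, the PARP9 group 0 of 38, the receptor chains with Usp18 0 of 45 and the antigen-processing genes 0 of 14. Classes with so few regions were not compared.

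Rsad2 encodes viperin, which makes a chain-terminating nucleotide. Its stronger region (chr12:26459725-26459852) lay 3337 bases upstream of the start, outside the gene, and had a pileup of 22, 28 and 30 in the Res-shFabp7 libraries. It stood 165 bases from a region called in all 6 libraries, whose pileup was 27, 23 and 32 with Res-shFabp7 and 16, 16 and 28 with Res-ctrl. The weaker Rsad2 region (chr12:26441869-26442083), 725 bases beyond the 3′ end, had 9, 10 and 8. At the start of Rsad2 itself, the values of 169, 156 and 171 against 131, 147 and 203 overlapped.

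Adar had its region inside the gene (chr3:89733785-89733946), 3168 bases downstream of the third start, with a pileup of 28, 28 and 47. No Res-ctrl library had a peak there. Ifit2 had one inside the gene (chr19:34553604-34553737) with 23, 29 and 27, which stood 126 bases from a region called in all 6 libraries. Samhd1 had one inside the gene (chr2:157108364-157108571) with 13, 10 and 12. These values are all low beside those at the starts of the same genes, which reached 309, 225 and 225.

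Among the sensors, Zbp1 recognises left-handed nucleic acid and can start necroptosis. One of its regions (chr2:173218507-173218711) lay inside the gene, with a pileup of 28, 37 and 39, and stood 102 bases from the region at the higher end of the gene that all 6 libraries shared. The other (chr2:173206035-173206322) lay 417 bases outside the lower end, with 14, 14 and 12. Ifih1 encodes MDA5, which senses long double-stranded RNA, and its region inside the gene (chr2:62627914-62628016) had 8, 13 and 12. The reference table gives no start window for Zbp1.

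**Figure D3:**
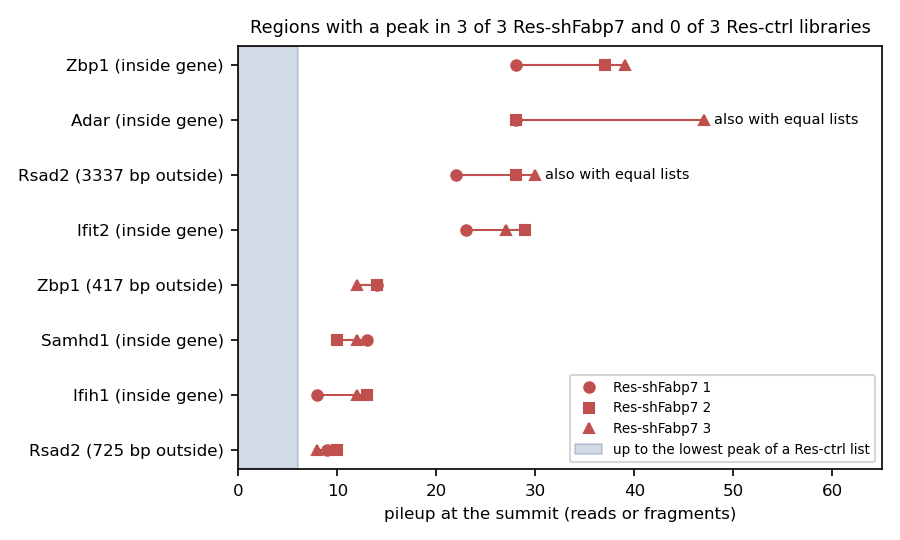
Pileup at the summit in the 3 Res-shFabp7 libraries (marks, joined by a line) for the 8 regions without a peak in any Res-ctrl library, with the distance outside the gene where there is one. The shaded band ends at 6, the highest of the Res-ctrl lists' lowest pileups; the Rsad2 region 3337 bp outside the gene and the Adar region also had no Res-ctrl peak, and kept their own, in lists of equal length.

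Most of these calls were lost when the lists were shortened to the same 82153 peaks. Only 2 of 182 regions then kept a peak in every Res-shFabp7 list and none in a Res-ctrl list, the upstream Rsad2 region and the Adar region, and 0 the reverse, where the shares over all regions were 1.13% and 0.525%. The share at these genes was then 1.1%. When peaks up to 200 bp apart were merged, the upstream Rsad2 region, the Ifit2 region and the inner Zbp1 region each joined a neighbour and lost the call. The Adar call was lost when peaks had to cover 50% of the region, and the Ifih1 call at a q of 0.001. Without Res-ctrl 3, the deepest control, the count was 13 (5.91%), where the share over all regions was 5.18%.

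Heights were compared over the 56610 regions called in all 6 libraries, 101 of them at these genes. Within each library the pileups were ranked and the ranks placed on a normal scale (the rank score, on which 1 unit is the standard deviation over all regions), which removes depth and list length as a common factor. Limma then tested each region, with adjustment over all 56610. At these genes 5 of 101 regions were higher with Res-shFabp7 (4.95%, over all 2.72%) and 0 were lower (over all 1.19%). At an unadjusted p under 0.05, limma gave 11 higher and 3 lower, 13.9% of these regions against 19.1% of all. The 5 lay at Gbp2, Oasl2, Zbp1, Ifnar1 and Parp14, 1 in each of 5 functional classes of 11 to 30 regions. The antigen-processing genes had 0 of 8.

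The Gbp2 region is the start of the gene (chr3:142620071-142621023, summit 115 bases upstream) and holds the response element printed above. Relative to the median over shared regions of its library, its pileup was 5.80, 6.83 and 7.05 with Res-shFabp7 and 5.22, 5.66 and 4.78 with Res-ctrl. The means were 6.56 ± 0.664 and 5.22 ± 0.436 (SD, n = 3 each), a ratio of 1.26, and all 3 Res-shFabp7 libraries were above all 3 Res-ctrl libraries. In rank it stood at the percentiles 96.1, 97.3 and 97.3 against 92.9, 94.4 and 92.4. The rank score differed by 0.38 (SE 0.0676, limma adjusted p = 0.000939). Of the 5, only this region also passed whichever of the 6 libraries was left out.

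The Oasl2 region (chr5:114914812-114915157) lay 2733 bases beyond the 3′ end of the gene. Its pileup was 34, 25 and 34 with Res-shFabp7 and 11, 9 and 14 with Res-ctrl, and the groups were far apart. The relative pileup was 0.702 ± 0.0943 and 0.319 ± 0.0212 (SD, n = 3 each), a ratio of 2.2, and the rank score differed by 1.00 (SE 0.257, limma adjusted p = 0.0187). Without Res-shFabp7 1 or 3 the adjusted p was 0.117 or 0.112. The region is low, between the percentiles 27.7 and 38.3 with Res-shFabp7 and between 6.44 and 10.5 with Res-ctrl. Inside Oasl2, 404 bases past the start, a still lower region with a pileup of 11, 14 and 10 against 7, 8 and 8 did not pass (limma adjusted p = 0.772).

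The Zbp1 region (chr2:173218814-173219668), at the higher end of the gene, had a pileup of 178, 167 and 171 with Res-shFabp7 and 98, 103 and 142 with Res-ctrl. The groups did not overlap, and Res-ctrl 3 was the highest of its group. The relative pileup was 3.91 ± 0.0573 and 3.23 ± 0.276 (SD, n = 3 each), a ratio of 1.21, and the rank score differed by 0.26 (limma adjusted p = 0.0286). Without Res-ctrl 2 the call held, and without any other library the adjusted p lay between 0.0532 and 0.125. This is also the region next to the inner Zbp1 region that was called only with Res-shFabp7.

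Parp14, an ADP-ribosyltransferase that acts in interferon and STAT6 signalling, had its region inside the gene near the higher end (chr16:35871318-35871505). Its pileup was 73, 71 and 73 with Res-shFabp7 and 41, 30 and 55 with Res-ctrl, and the groups did not overlap. The relative pileup was 1.65 ± 0.0531 and 1.17 ± 0.125 (SD, n = 3 each), and the rank score differed by 0.34 (limma adjusted p = 0.05, just inside the threshold). Ifnar1 had its region 9210 bases upstream of the start (chr16:91475776-91476143), with 202, 185 and 217 against 141, 109 and 179. Its rank score differed by 0.23 (limma adjusted p = 0.0469), and relative to the library median Res-ctrl 1, at 4.41, was level with Res-shFabp7 1 and 2, at 4.39 and 4.41. Both calls were lost whichever of the 6 libraries was left out, and the Parp14 call also with quantile normalisation (limma adjusted p = 0.0523).

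Psmb8 came next. Its region 375 bases beyond the gene (chr17:34201721-34202005) had a pileup of 196, 192 and 199 with Res-shFabp7 and 134, 121 and 176 with Res-ctrl, with no overlap. The relative pileup was 4.45 ± 0.167 and 4.06 ± 0.204 (SD, n = 3 each), and the limma adjusted p was 0.101. All the height calls depended on the use of pileup. With the authors' fold over the local background in its place, limma called 0 of 101 regions at these genes and 0 of all 56610, with 5 higher and 5 lower at these genes at an unadjusted p under 0.05 (9.9%, over all 13.7%). The fold at the start of Gbp2 was 10.2, 11.1 and 11.2 against 8.79, 9.35 and 8.95 (limma adjusted p = 0.808 for its rank), and its rank score differed by 0.10. With fold the rank score differed by 0.12 at Zbp1 and 0.13 at Ifnar1, and by 0.65 at Parp14 and 0.75 at Oasl2 (limma adjusted p = 0.291 and 0.149).

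**Figure D4:**
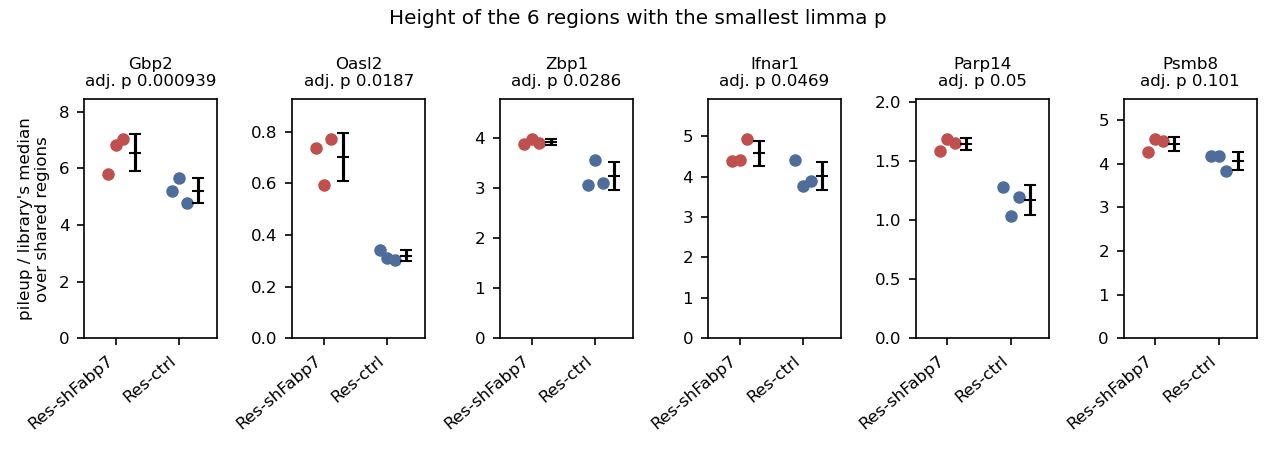
Pileup divided by the library's median over the regions shared by all 6 libraries, for the 6 regions of these genes with the smallest limma p. Points are libraries, bars the mean with its SD, and each panel starts at 0 on its own scale; the Oasl2 region has the largest ratio between the groups, 2.2, and at Ifnar1 a Res-ctrl library reached the Res-shFabp7 range.

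Starts with a window in the reference table differed little as a whole. Zbp1, Parp14, Parp9 and Usp18 have no window there. The regions of Zbp1 and Parp14 that passed limma, near a gene end, could therefore not be counted as starts. The windows fell in 22 distinct regions called in all 6 libraries, of which 12 had a positive and 10 a negative difference in rank score, with a median of 0.03 and a range from -0.12 to 0.38. Only Gbp2 passed the test, and 2 had an unadjusted p under 0.05. The other was Xaf1, a proapoptotic gene, with a pileup of 209, 173 and 196 with Res-shFabp7 and 124, 108 and 204 with Res-ctrl (limma adjusted p = 0.147), where Res-ctrl 3 lay inside the Res-shFabp7 range. Within 1 kb of either gene end, a class chosen after the values were seen, 3 of 35 regions of these genes were higher with Res-shFabp7, where the share over all such regions was 0.882%. They were the regions of Gbp2, Zbp1 and Parp14.

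Over all 101 regions the differences leaned slightly to Res-shFabp7. Of them 59 were positive (58.4%, over all 47.8%), and the median was 0.05, against -0.01 over all regions. Groups did not overlap in rank in 14 regions that were higher with Res-shFabp7 (13.9%, over all 11.6%) and in 8 that were lower (7.92%, over all 11.2%). By class, 20 of 26 regions at Ifnar1, Ifnar2 and Usp18 were positive, 7 of 8 at Tap1, Psmb8 and Psmb9, 15 of 30 at the antiviral effectors and 5 of 14 at the guanylate-binding proteins. The 8 lower regions lay at Samhd1, Trim25, Ifit3, Gbp2, Dtx3l, Adar (2) and Gbp5, and none passed limma. The lowest p among them was at Samhd1, 3111 bases upstream (pileup of 96, 85 and 113 with Res-shFabp7 and 90, 91 and 125 with Res-ctrl, limma adjusted p = 0.198).

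**Figure D5:**
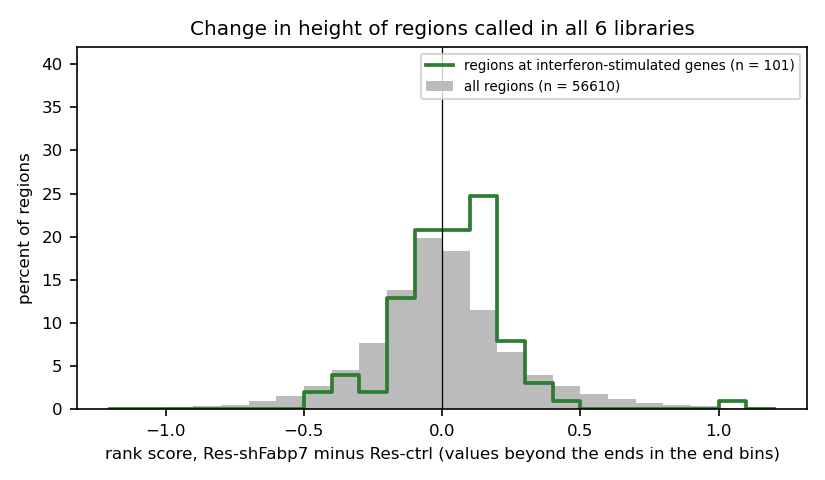
Distribution of the difference in rank score (Res-shFabp7 minus Res-ctrl, bins of 0.1) for the 101 regions of the interferon-stimulated genes (green line) and for all 56610 regions (grey bars), as percent of each set. The green line is above the bars in each bin from -0.1 to 0.3, by the most between 0.1 and 0.2, with 25 regions. At Oasl2, 1 region lies at 1.00.

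The rest of the pathway was read from lists of 109 further genes, 108 of them protein-coding in the table. They held 1205 regions, of which 23 were called only with Res-shFabp7 (1.91%, over all 2.28%) and 3 only with Res-ctrl (0.249%, over all 0.155%). In lists of equal length 9 of these 23 and all 3 of these 3 kept the call, and the counts became 11 of 1005 regions with a Res-shFabp7 peak alone (1.09%, over all 1.13%) and 10 with a Res-ctrl peak alone (0.995%, over all 0.525%). Of 547 regions called in all 6 libraries, limma found 26 higher (4.75%, over all 2.72%) and 6 lower (1.1%, over all 1.19%). The ligand list had 6 higher regions, all at Ifng, the interferon gamma gene, which also had 1 region called only with Res-shFabp7. The region at its start had a pileup of 66, 53 and 56 with Res-shFabp7 and 25, 21 and 51 with Res-ctrl (limma adjusted p = 0.0443), without overlap.

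Downstream of the receptors the picture was mixed. Jak2, the kinase of the interferon gamma receptor, had 2 higher regions and 3 called only with Res-shFabp7. The one 1554 bases upstream of its start, with a pileup of 47 in each of the 3 libraries, was the only one of these that kept the call in lists of equal length. Tyk2, the kinase of the type I receptor, had 1 higher region, with 136, 102 and 123 against 61, 57 and 83 (limma adjusted p = 0.00701). Jak1 had none higher and 1 called only with Res-ctrl, with a pileup of 12, 11 and 21, and 2 such calls in lists of equal length. Irf9 and Stat2, of the type I complex, showed no call: Irf9 had 1 region in all 6 libraries, with a limma adjusted p of 0.489, and Stat2 had none of its 4 regions in all 6. Irf7, which amplifies the response, had 2 with a lowest limma adjusted p of 0.214.

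Among transcription factors, Irf4, induced by the T cell receptor, and Stat3 each had 2 higher regions and 1 called only with Res-shFabp7, and Irf4 had 1 called only with Res-ctrl. Irf2, a repressor of interferon targets, had 1 higher region and 2 called only with Res-shFabp7. Irf1, which interferon gamma induces, had 1 called only with Res-shFabp7, 725 bases past its start with 55, 44 and 50, and 1 lower region. Of further target genes, Slfn1, a Schlafen family gene, and Nlrc5, the activator of MHC class I genes, had 2 higher regions each. Oas3 had 1 higher region and 1 called only with Res-shFabp7, and Rnf213 and Ifne had 2 each called only with Res-shFabp7. In lists of equal length the calls of this kind at Stat3, Irf1, Oas3, Rnf213 and Ifne were lost, as was 1 of 2 at Irf2, and both Irf4 calls were kept. At the start of Slfn1 the pileup was 287, 254 and 268 against 180, 165 and 231 (limma adjusted p = 0.0262), without overlap.

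In the other direction, Ifngr1, the ligand-binding chain of the interferon gamma receptor, had 2 lower regions. The one 13342 bases upstream had a pileup of 75, 60 and 61 with Res-shFabp7 and 68, 77 and 100 with Res-ctrl (limma adjusted p = 0.0206), where raw values overlapped. Socs3, a brake on cytokine receptors, Trim30a and Tlr7 had 1 lower region each. Ly6e had 1 called only with Res-ctrl, and 2 such calls in lists of equal length. Trim30a also had 1 region called only with Res-shFabp7, with 16, 23 and 15, which kept the call in lists of equal length. The Tlr7 values were low, at 14, 10 and 11 against 19, 14 and 23.

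Markers of several cell types were open. A region called in all 6 libraries was found at all 10 CD8 T cell markers, and at 3 of 5 B cell, 3 of 5 NK cell, 3 of 5 myeloid, 4 of 5 plasmacytoid dendritic cell, 3 of 4 erythroid and 1 of 5 epithelial tumour markers, while Ms4a1, Hba-a1, Krt8 and Sftpc had no region. The mean relative pileup over shared regions was 1.55 to 1.59 with Res-shFabp7 and 1.56 to 1.64 with Res-ctrl for the CD8 T cell list. For the B cell list, 7 regions at 3 genes, it was 0.759 to 0.857 and 0.581 to 0.618, without overlap. By limma 3 of the 7 were higher (42.9%, over all 2.72%). For the NK cell list it was 1.42 to 1.52 against 1.48 to 1.67, for the myeloid list 1.01 to 1.06 against 0.993 to 1.15, and for the plasmacytoid dendritic cell list 1.25 to 1.3 against 1.25 to 1.36. For the erythroid list, 5 regions, it was 1.38 to 1.6 against 1.44 to 1.93, and for the epithelial tumour list, 4 regions, 0.636 to 0.784 against 0.569 to 0.758. Regions called only with Res-shFabp7 were 2 of 11 at the epithelial tumour markers (18.2%) and 2 of 27 at the B cell markers (7.41%), where the share over all was 2.28%. They were 4 of 294 at the CD8 T cell markers (1.36%), 1 of 39 at the myeloid markers (2.56%) and 0 in the other lists. In every marker list 0 regions were called only with Res-ctrl, where the share over all was 0.155%. The level did not set the CD8 T cell list apart. Bst2 is counted both among the interferon-stimulated genes and as a plasmacytoid dendritic cell marker. B cells also express interferon-stimulated genes, and the part of the B cell and epithelial tumour regions in the results above was not tested.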

How the data were processed

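The 6 peak lists, 1 per library, were called by the authors, with MACS2 2.2.7.1 and Bowtie 1.1.2 on mm10, and Trim Galore 0.6.5 with cutadapt 2.8, per the submitters' processing notes. The sources used here do not give transposase shift, duplicate treatment or peak mode. The deposited lists give p and q values as −log10, pileup (the coverage signal at the summit) and fold (the ratio of summit to local background). These are the authors' values for each peak. Starts were read as counted from 0 and are given from 1.

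The members, gene lists and tests were chosen with earlier results of these data known. Peaks went to the nearest protein-coding gene in a RefSeq table of GRCm38.p6, the primary assembly of mm10 (21883 genes). Peaks overlapping by at least 1 bp were merged. A region had a gene if its strongest summit did. Rank scores were tested with limma 3.58.1 (empirical Bayes with trend, Benjamini-Hochberg, threshold 0.05), in Python 3.11.15 with pandas 2.3.3 and scipy 1.17.1. The p-values set the difference between groups against the variation among these libraries, which limma pools in part over regions. The labels do not say whether this is variation between animals or between wells. The merging and the height test were run on simulated data with planted peaks and planted height changes. Local background was not simulated, so this does not show how they perform on these lists. Exons, introns and UTRs were not assigned, since no annotation with them was used here.

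Genes named with values were those with a region called only with 1 group or past the limma threshold, those whose start had a peak in fewer than 6 libraries, the 6 with the highest starts, the 5 with most regions in all 6 libraries and the 6 regions of smallest p. Of the pathway, at most 10 genes per direction were taken by number of called regions, with Stat2, Irf9, Irf7, Irf1, Jak1, Tyk2 and Ifng. One further pathway gene is not reported here. Isg15, Ifit1, Ifit3, Bst2, Trim25, Eif2ak2, Mx2, Xaf1 and the 8 lower regions were named after their values were seen. Alternatives were q of 0.01 and 0.001, equal numbers of peaks, 20 kb, merging across 200 bp, 50% cover, quantile normalisation, fold, a replicate block and each library left out.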

Additional observations from a re-analysis of the deposited data

How the results depend on the processing

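The share of peaks at these genes kept its sign at a q of 0.01 or 0.001, at 20 kb and without each library, and was 0 in lists of equal length (exact permutation p = 1). The count of regions called only with Res-shFabp7 was 2 in lists of equal length, and 8 to 13 when 1 library was left out, where the share over all regions was 2.9% to 5.18% and, without Res-shFabp7 3, the share at these genes (3.64%) was below that over all (4.27%). The count called only with Res-ctrl was then 0 to 2 of 220, with 2 without Res-ctrl 2 and 1 without Res-shFabp7 3, Res-ctrl 1 or Res-ctrl 3. Over all 134174 regions the same count also rose, from 208 with all libraries to between 403 and 753 with 1 left out. The count of regions higher in height was 0 with fold in place of pileup, as it was over all regions. With a library left out it was 1 to 3 (1 without Res-shFabp7 1 or 3, 2 without Res-shFabp7 2 or Res-ctrl 1, 3 without Res-ctrl 2 or 3). The arm with 2 libraries then borrows its spread from the other. The share over all regions was 0.466% without Res-shFabp7 1, 1.17% without Res-shFabp7 2 and 0.816% without Res-shFabp7 3. It was 1.22% without Res-ctrl 1 and 1.71% without Res-ctrl 2. Without Res-ctrl 3 it was 3.65%, and the 3 of 101 regions at these genes were a smaller share than that. The cause of these changes in count was not tested. No value changed sign. Same-numbered libraries showed no clear shared deviation: their deviations from the group means correlated at -0.0245, 0.015 and -0.0158 over regions. The labels do not say whether same-numbered samples shared an animal or a day, and these correlations cannot settle it. With the replicate block the share differed by -0.0478 (exact paired permutation p = 0.25, the smallest possible), and 5 regions were higher and 0 lower. Mx1 and Mx2 added to the gene table, chosen after seeing the data, gave 231 regions and again 8 and 0. Depth limits the calls without a peak: the lowest peaks had a pileup of 5 to 6, and the 2 shallowest libraries were both Res-ctrl.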
